A study of Rattus norvegicus with 25 samples.

Results

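The comparison described here set 5 rats given the esophageal carcinogen N-nitrosomethylbenzylamine (NMBA) together with a tocopherol mixture enriched in the gamma form against 5 Control rats that ate a normal diet and received no NMBA. These 10 rats were chosen by their sample titles from the 25 of the study. All were male F344 rats, an inbred strain, and total RNA labelled as esophageal epithelium was hybridised to 1-colour Agilent arrays, with 1 array per rat. The other groups, of 5 rats each, received NMBA on the normal diet (NMBA), NMBA with alpha-tocopherol, or NMBA with delta-tocopherol. The labels used here give no dose, age or duration. The comparison asks what still differed from untreated epithelium when NMBA was given with the gamma-enriched mixture. It varies both the carcinogen and the tocopherol at once, and no group received tocopherol without NMBA.

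The rat esophagus is lined by a stratified squamous epithelium, in which basal cells divide and their daughters differentiate towards a keratinised surface. NMBA is a nitrosamine that cytochrome P450 enzymes turn into reactive species that methylate and benzylate DNA, and methylated guanine is repaired by Mgmt. Tocopherols are the lipid-soluble antioxidants of the vitamin E family. They differ in the methyl groups on the chromanol ring, and the liver protein encoded by Ttpa favours the alpha form.

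Promoter sequence is shown for 3 genes on which the account turns: Gip, the gene with the largest difference, Fosl1, an AP-1 transcription factor subunit that rose, and Cxcl10, a chemokine that NMBA raised. Each run is the 250 bases before the annotated start, 5′ to 3′, from RefSeq on assembly GRCr8. Gip lies at chr10:81464820-81465069 on the plus strand, Fosl1 at chr1:212183635-212183884 on the plus strand and Cxcl10 at chr14:15988816-15989065 on the plus strand. Capitals mark matches, searched on both strands, to the TATA box TATAAA. They also mark matches to the AP-1 site TGANTCA and to an interferon response core, a pair of GAAA stretches set 2 bases apart.
Gip: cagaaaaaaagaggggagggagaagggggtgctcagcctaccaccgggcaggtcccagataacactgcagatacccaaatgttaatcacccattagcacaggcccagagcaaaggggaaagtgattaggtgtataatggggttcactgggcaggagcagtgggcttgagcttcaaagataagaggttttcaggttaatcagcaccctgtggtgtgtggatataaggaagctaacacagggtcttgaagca
Fosl1: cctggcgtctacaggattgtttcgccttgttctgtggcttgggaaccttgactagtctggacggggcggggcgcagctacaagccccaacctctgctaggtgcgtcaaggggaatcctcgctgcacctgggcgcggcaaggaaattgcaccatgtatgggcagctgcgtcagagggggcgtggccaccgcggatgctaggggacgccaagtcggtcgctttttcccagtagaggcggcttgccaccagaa
Cxcl10: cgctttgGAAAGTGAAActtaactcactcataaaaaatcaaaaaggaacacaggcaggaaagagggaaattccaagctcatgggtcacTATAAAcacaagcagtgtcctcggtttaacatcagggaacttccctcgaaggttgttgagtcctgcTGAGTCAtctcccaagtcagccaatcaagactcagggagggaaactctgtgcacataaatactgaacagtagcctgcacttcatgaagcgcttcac
Cxcl10 held 1 match each to the interferon core, the TATA box letters and the AP-1 site. They lay 243 to 234, 162 to 157 and 96 to 90 bases before the start. The windows of Gip and Fosl1 held no exact match. Near variants, such as the tataag of the Gip window, were not counted, so a TATA box in Gip is not excluded. Among all 33469 promoters of the same length, 12.9% held the TATA box, 6.34% the AP-1 site and 3.41% the interferon core. Of 30 promoters found for the 45 genes that rose, 2 held the AP-1 site and 0 the interferon core. Of 28 found for the 33 genes that fell, 3 held the AP-1 site and 2 the interferon core.

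Signals were read on a log2 scale after subtracting each array's 75th percentile, so a level of 0 is the signal of a fairly bright spot on that array, and levels are compared between rats for the same gene only. Between 72.4% and 78.0% of spots on the gamma arrays and between 74.4% and 76.1% on the Control arrays were well above background, and no spot was saturated. Gamma rat 3 stood furthest from its group: its median spread against the other gamma rats (SD of the log2 difference over genes) was 0.87, while the other 9 rats lay between 0.58 and 0.73. The gamma rats sat on 1 slide with Control rat 1, and Control rats 2 to 5 sat on another slide, so slide and group cannot be told apart beyond that 1 rat. NMBA rats 1 to 4 shared the slide of Control rats 2 to 5 and NMBA rat 5 was on a further slide, so 0 slides held both gamma and NMBA rats. Values against Control rat 1 alone are therefore given beside the main ones as within-slide values. The summed markers of squamous differentiation were among the brighter signals in both groups (log2 of the sum 7.08 to 7.84 in gamma and 7.16 to 7.94 in Control rats), and skeletal muscle markers were also bright (5.70 to 7.30 and 6.37 to 7.95). The RNA labelled as epithelium thus held muscle transcripts in every rat, and fewer cells of a type cannot be told apart from less RNA per cell.

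Of 12343 genes tested, 78 differed between gamma and Control rats at a Benjamini-Hochberg adjusted p under 0.05 (0.632%), of which 45 were higher (0.365%) and 33 lower (0.267%) in the gamma rats. The median over all genes was -0.06. At an unadjusted p under 0.05 the count was 2272. The 5 gamma and 5 Control values did not overlap in 61 of the 78 genes, against 3.36% of all genes. The same values had given the calls, so this is a description and no further support. The split was 48 higher and 21 lower with quantile normalization, and 25 and 5 with the normexp background correction. The count of calls moved with single rats. It was 697 (162 higher, 535 lower) without Control rat 1, and 51, 40, 25 and 27 without Control rats 2, 3, 4 and 5. Control rat 1 was the only Control rat on the gamma slide. Without it, here and below, slide and group cannot be told apart at all. Without gamma rats 1, 2 and 5 the count of calls was 32, 35 and 39. With slide as a block, which reduces the comparison to the 5 gamma rats minus Control rat 1, 4 genes passed. That 1 Control rat gives no spread of its own and is assumed to vary like the rats of the other groups.

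The largest change was in Gip, which encodes the gut hormone glucose-dependent insulinotropic polypeptide. In gamma rats 1 to 5 its level was -2.65, -2.76, -2.62, -1.76 and -2.55. Control rats 1 to 5 read -8.21, -7.47, -8.24, -6.79 and -6.70, and only 2 of these arrays were well above background. Every gamma rat was therefore more than 3 log2 units above every Control rat. Gip rose by 5.01 ± 0.34 (log2 difference of means ± limma's moderated SE, 5 rats per group here and below), with a limma adjusted p of 3.42e-09. The size depends on how background is treated, since most Control arrays were near it: with the normexp correction the difference was 2.99 (limma adjusted p = 3.43e-07). Within the slide it was 5.75. In the NMBA rats, which share the Control rats in their comparison, Gip was 5.57 ± 0.34 above Control. The gamma rats did not differ from the NMBA rats at the threshold (-0.56, limma adjusted p = 0.301).

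Krt82, a type II keratin best known from hair, was well above background on all 5 gamma arrays and on no Control array. Its levels were -4.72, -5.15, -4.04, -3.76 and -4.68 in gamma rats 1 to 5, and -8.46, -7.85, -8.49, -7.66 and -7.96 in Control rats 1 to 5. The groups were wholly apart. Krt82 was at least 9.83-fold higher in the gamma rats (fitted difference 3.61 ± 0.36, limma adjusted p = 3.38e-06), a bound set by the weakest signal still above background on the Control arrays. Such bounds, here and below, hold for the main background treatment only and do not allow for the SE. With the normexp background the fitted difference was 1.27 (limma adjusted p = 0.0129). The within-slide difference was 3.99, and NMBA minus Control was 3.64.

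Fgf13 encodes an intracellular member of the fibroblast growth factor family that binds sodium channels and microtubules. It read -2.82, -2.70, -3.13, -2.62 and -3.42 in gamma rats 1 to 5 and -5.88, -4.26, -5.21, -3.95 and -4.41 in Control rats 1 to 5, above background on all 10 arrays. No Control rat reached the lowest gamma rat, and Control rat 1 was the lowest of all. Fgf13 rose by 1.81 ± 0.26 (limma adjusted p = 0.00124), with 2.94 within the slide and 1.78 in NMBA minus Control.

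The 4 genes that passed with slide as a block were Gip, Krt82, Fgf13 and Plpp1, a lipid phosphatase named here after its values were seen. Plpp1 read 1.2, 1.51, 0.89, 1.65 and 1.60 in the gamma rats and -1.92, 1.43, 1.65, 1.61 and 1.82 in Control rats 1 to 5. Only Control rat 1 was low. Over all 5 Control rats the difference was 0.45 ± 0.46 and did not pass (limma adjusted p = 0.615), whereas against Control rat 1 it was 3.29. Passing with the block thus rests on the value of 1 rat, for Fgf13 as for Plpp1 the lowest of its group.

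**Figure D1:**
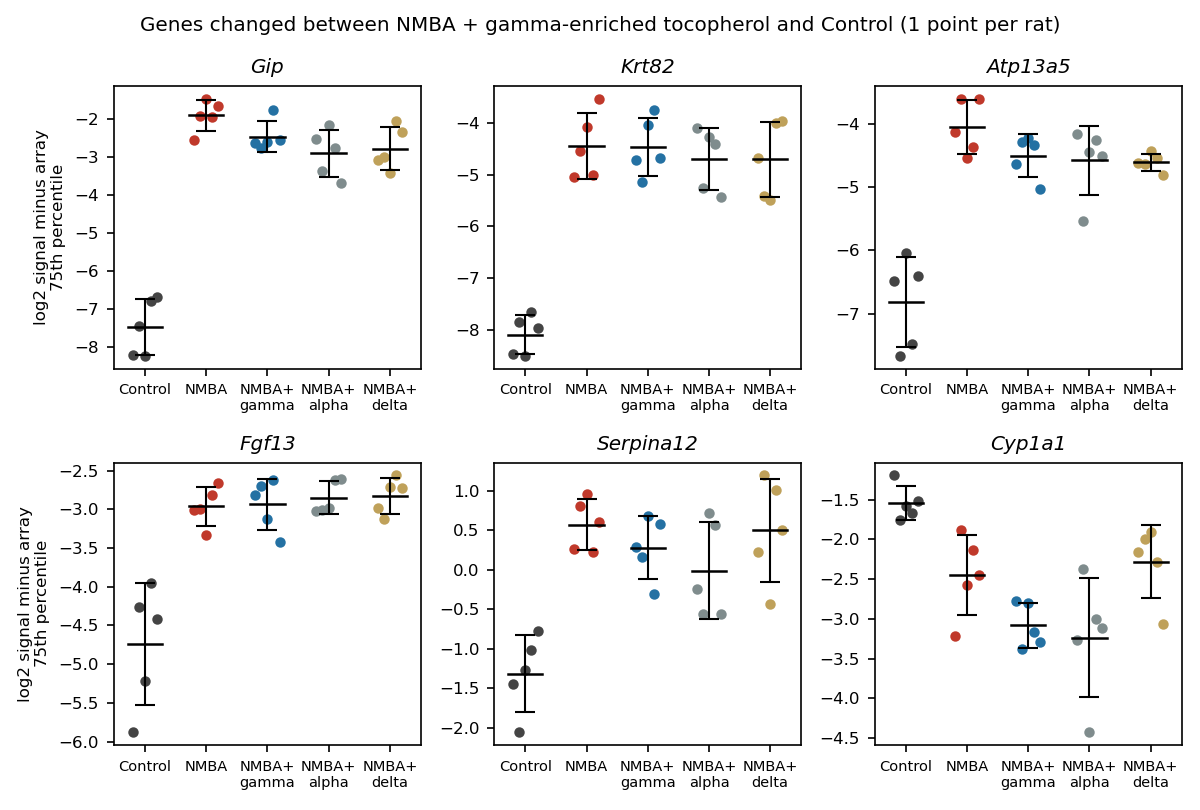
Array-scaled log2 level (y axis) of 6 genes in each of the 5 groups (x axis), with 1 point per rat, the group mean as a line and bars of 1 SD. Gip, Krt82, Atp13a5, Fgf13 and Serpina12 sit higher in all 5 gamma rats than in any Control rat, and Cyp1a1 sits lower (-3.37 to -2.77 against -1.76 to -1.19).

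The other large rises were of varied function. Atp13a5, a P5-type transport ATPase, read -4.63, -4.29, -4.22, -4.34 and -5.04 in gamma rats and -6.48, -7.67, -6.05, -7.49 and -6.41 in Control rats, with 2 Control arrays above background. The groups lay a full log2 unit apart at their closest. It rose by 2.31 ± 0.29 (limma adjusted p = 1.60e-04). Within the slide the difference was 1.98. Xkr4, of a family of lipid scramblase proteins, rose by 2.24 ± 0.41 (limma adjusted p = 0.0106) and was above background on 1 Control array. Serpina12, the serine protease inhibitor vaspin, read 0.29, 0.17, 0.69, -0.31 and 0.59 in gamma rats and -1.45, -2.05, -1.26, -1.02 and -0.77 in Control rats. It was bright in both groups, and the lowest gamma rat, rat 4, was still above the highest Control rat. Its rise was 1.59 ± 0.31 (limma adjusted p = 0.0151; 1.73 within the slide). Klk1c8, a kallikrein-family serine protease, rose by 1.64 ± 0.30, and Rln1, the hormone relaxin, by 1.49 ± 0.26.

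Fosl1 encodes Fra-1, a partner of Jun proteins in the AP-1 transcription factor. Its level was -3.54, -3.76, -2.18, -3.25 and -1.86 in gamma rats and -4.36, -5.69, -3.90, -4.85 and -3.91 in Control rats. The groups did not overlap but came close, with gamma rat 2 just above Control rat 3. Fosl1 rose by 1.62 ± 0.37 (limma adjusted p = 0.0450), and the call was kept in 3 of the 10 fits that left out 1 rat, where the adjusted p ran from 0.0161 to 0.136. Mmp10, the matrix protease stromelysin-2, rose by 1.34 ± 0.31 (limma adjusted p = 0.0473), with Control above background on 1 array and overlap between Control rat 3 (-6.31) and the lower gamma rats (-6.37 and -6.44). It kept the call in 2 of those 10 fits.

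Of the remaining large rises, Ccdc68, a centriole protein, was at least 3.26-fold higher and Mei1, a meiosis gene, at least 2.22-fold higher, both above background on no Control array. Mei1 was above background on 3 gamma arrays and kept its call in 4 of the 10 fits without 1 rat. Ddias, named for suppressing apoptosis after DNA damage, read -3.87, -3.81, -2.81, -3.17 and -3.85 in gamma rats and -5.38, -4.47, -4.57, -5.52 and -4.58 in Control rats. Its groups were apart, and it rose by 1.40 ± 0.30 (limma adjusted p = 0.0340), a call also kept in 4 of those 10 fits. With the normexp background Atp13a5 (1.04) and Xkr4 (0.85) passed at smaller differences, and Ccdc68 (0.52), Mei1 (0.51) and Mmp10 (0.33) did not pass.

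Several smaller rises had little spread. Wfdc3, a small secreted protein of the WAP protease inhibitor family, lay between -3.27 and -3.0 in gamma rats and between -4.13 and -3.73 in Control rats, and it rose by 0.87 ± 0.13 (limma adjusted p = 0.00226). Tnfrsf18, the tumour necrosis factor family receptor GITR of T cells, read -2.06, -1.98, -1.54, -1.32 and -1.63 in gamma rats against -2.81, -2.95, -2.71, -2.99 and -2.82 in Control rats. All gamma rats were higher, by 1.15 ± 0.19 (limma adjusted p = 0.00470). Inpp5d, the phosphatase SHIP1 of blood cells, rose by 0.90 ± 0.14 on its brighter probe, whereas its other probe gave 0.33 and the mean of both did not pass. Gip, Krt82, Atp13a5, Xkr4, Ccdc68, Fgf13, Klk1c8, Serpina12, Rln1, Wfdc3, Tnfrsf18 and Inpp5d passed in each of the 10 fits that left out 1 gamma or Control rat.

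**Figure D2:**
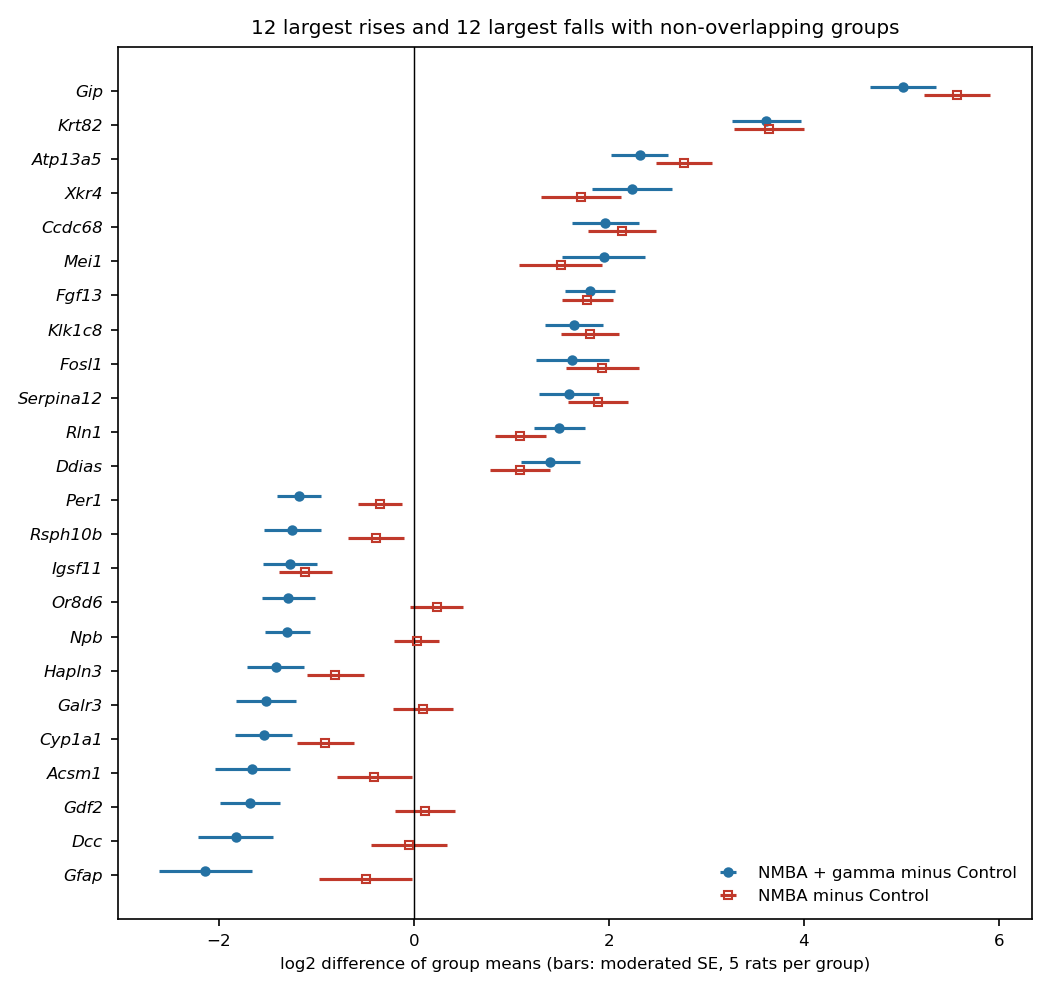
Log2 difference of group means (x axis) for the 12 largest rises and the 12 largest falls between gamma and Control rats whose values did not overlap (y axis), as filled circles, with the same genes in NMBA minus Control as open squares. Bars are moderated SE with 5 rats per group; the rises from Gip (5.01) to Ddias (1.40) stand near their NMBA values, while Gdf2, Dcc, Npb, Galr3 and Or8d6 are near 0 in NMBA minus Control.

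Over all genes, limma called 191 in NMBA minus Control (1.55%), of which 161 were higher (1.3%), and 8.95% of genes in gamma minus NMBA, where 909 were lower (7.36%) and 196 higher. Each of these comparisons shares a group with gamma minus Control. Gamma and NMBA rats sat on different slides and are linked only through Control rat 1, so slide and tocopherol cannot be told apart in gamma minus NMBA. With slide as a block only Plpp1 was called there by limma, and 397 genes had an unadjusted p under 0.05, and the genes given below with a gamma minus NMBA p that passed had an adjusted p of 0.998. Set beside NMBA minus Control, the 45 genes that rose had a median of 1.0 in gamma minus Control and 0.95 in NMBA minus Control. A few of them read differently in the NMBA rats. Kctd8, an auxiliary subunit of GABA-B receptors named after its values were seen, was -4.14, -3.97, -4.06, -4.35 and -4.35 in gamma rats and -5.78, -4.66, -5.48, -5.83 and -5.79 in Control rats. It rose by 1.33 ± 0.26 (limma adjusted p = 0.0188), whereas NMBA minus Control was 0.27. Slc35d1, a nucleotide sugar transporter chosen in the same way, lay between -3.03 and -2.63 in gamma rats, -3.97 and -3.54 in Control rats and -3.90 and -3.43 in NMBA rats. It rose by 0.88 ± 0.15 against Control (limma adjusted p = 0.00824), with -0.07 in NMBA minus Control and 0.94 in gamma minus NMBA. The 33 genes that fell had a median of -1.29 in gamma minus Control and -0.05 in NMBA minus Control. NMBA rats 1 to 4 shared a slide with Control rats 2 to 5, so for the falls a part of slide and a part of tocopherol cannot be told apart between these medians.

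Cyp1a1 was among the falls. It encodes the cytochrome P450 induced through the aryl hydrocarbon receptor. In gamma rats 1 to 5 it read -2.77, -3.37, -2.80, -3.16 and -3.30, and in Control rats 1 to 5 -1.19, -1.76, -1.58, -1.67 and -1.52. All 10 arrays were above background, the groups were a full log2 unit apart, and neither group had a stray rat. Cyp1a1 fell by 1.54 ± 0.29 on the log2 scale (limma adjusted p = 0.0132) and by 1.89 within the slide, and it passed in each of the 10 fits that left out 1 rat. NMBA rats 1 to 5 spread from -3.21 to -1.88, with NMBA minus Control at -0.91 ± 0.29 (limma adjusted p = 0.146) and gamma minus NMBA at -0.63 (adjusted p = 0.168). Cyp1a1 was the 1 gene called among 12 tested of 17 listed genes of xenobiotic metabolism, whose median was -0.25. Over all genes 0.632% were called. Cyp2a3, a nasal and esophageal P450 known to act on nitrosamines, differed by -0.67 ± 0.39 and did not pass (limma adjusted p = 0.360).

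Most other falls were at dim probes. Of the 33 genes that fell, 13 were above background on no gamma array, and 22 were below it on at least 1 of the 10 arrays. Gfap, the intermediate filament of glia, was above background on all Control arrays (-6.52, -6.21, -4.41, -5.56 and -5.05) and on no gamma array (-7.84, -8.43, -7.65, -6.71 and -7.81). Each gamma rat was below each Control rat, and Gfap was at least 4.26-fold lower (limma adjusted p = 0.0365). The call was kept in 3 of the 10 fits without 1 rat, where the adjusted p reached 0.115. Gdf2, which encodes the circulating ligand BMP9, was above background on no gamma array. It fell by 1.68 ± 0.31 on the log2 scale, a fitted 3.20-fold (limma adjusted p = 0.00978). It read between -7.58 and -6.55 in gamma rats and between -6.23 and -5.01 in Control rats, passed in each of the 10 fits without 1 rat, and was -0.92 within the slide. The netrin receptor Dcc was at least 2.63-fold lower and the neuropeptide Npb at least 2.45-fold lower, both above background on no gamma array. Dcc kept its call in 4 of those 10 fits. With the normexp background Gfap (-0.93), Gdf2 (-0.71), Dcc (-0.55) and Npb (-0.43) did not pass, whereas Cyp1a1 did (-1.45, limma adjusted p = 0.00753).

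Acsm1, a medium-chain acyl-CoA synthetase above background on all 10 arrays, read -5.33, -6.28, -5.20, -5.54 and -6.04 in gamma rats and -4.78, -4.79, -2.66, -4.58 and -3.30 in Control rats. Control rats 3 and 5 were the high ones, and the groups did not overlap. Acsm1 fell by 1.66 ± 0.39 (limma adjusted p = 0.0475) and passed in 2 of the 10 fits without 1 rat. Sdc3, the cell-surface proteoglycan syndecan-3 named after its values were seen, lay between -1.70 and -1.31 in gamma rats and between -0.98 and -0.43 in Control rats. It fell by 0.86 ± 0.15 on the log2 scale (limma adjusted p = 0.00824), and the within-slide difference was -0.82. Per1, a repressor of the circadian clock that glucocorticoids induce, was above background on only 1 gamma and 1 Control array, so its difference of -1.18 ± 0.23 (limma adjusted p = 0.0148) rests on signals near background.

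A group of the falls carried receptor names of the nose. Of 196 olfactory and vomeronasal receptor genes tested, a grouping made after the calls were seen, 10 were called lower, against 0.267% of all genes, and 0 higher. Of the 196, 93.4% had a negative difference, with a median of -0.74, whereas over all genes 42.2% were positive and the median was -0.06. The 10 called receptors were above background on 0 to 3 of the 5 gamma arrays. Their median was -1.43 over all Control rats and -0.11 within the slide, where values ran from -1.15 to 0.40. Receptors with larger differences, such as Or4l1 (-1.75), had groups that overlapped. Or8d6, the one among the 12 largest falls whose groups did not overlap, read between -7.91 and -7.38 in gamma rats, -7.14 in Control rat 1 and between -6.71 and -5.64 in Control rats 2 to 5. Tnni3k, a kinase of heart muscle named after its values were seen, showed the same layout, with -8.58 in Control rat 1 and between -6.54 and -6.08 in the other Control rats. For these dim genes the Control rat on the gamma slide was thus near the gamma rats.

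Over all 78 called genes, 72 had the same sign within the slide, 45 of 45 among the rises and 27 of 33 among the falls. The same 5 gamma rats and Control rat 1 had helped to choose them, so this is a description. The rises had a median of 1.0 over all Control rats and 0.94 within the slide, and the falls -1.29 and -0.50. The 11 falls above background on all 10 arrays had medians of -0.92 and -0.77, and the 22 dimmer falls -1.47 and -0.42. The part of slide in the falls was not tested apart from these values.

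**Figure D3:**
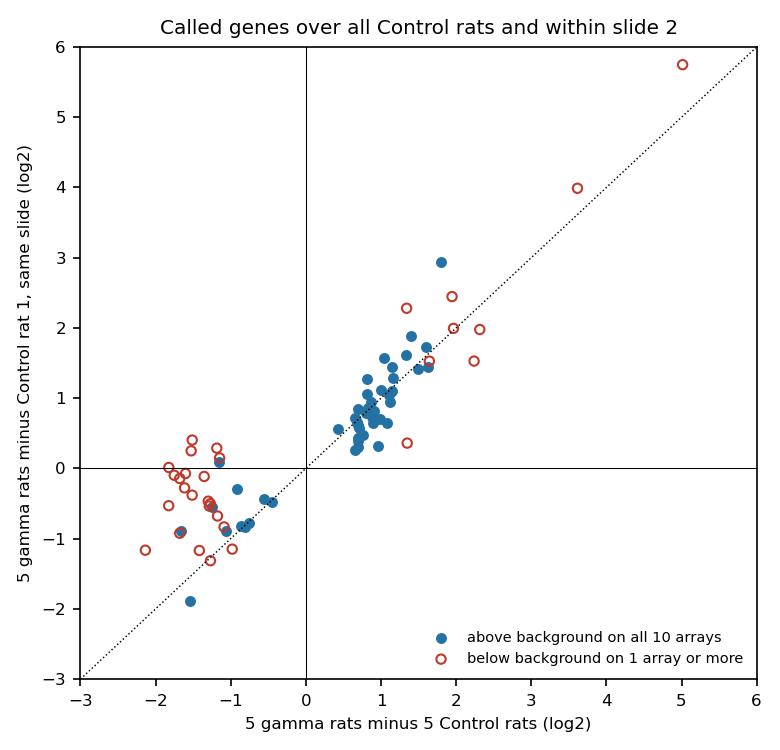
Log2 difference of the 78 called genes over all 5 Control rats (x axis) against the difference from Control rat 1, the only Control rat on the gamma slide (y axis). Filled points were above background on all 10 arrays and open ones on fewer. Rises scatter to both sides of the dotted line of equality (medians 1.0 and 0.94). A1bg lies well below it (1.35 and 0.36) and Fgf13 well above it (1.81 and 2.94). Open points among the falls lie nearer to 0 on the y axis (medians -1.47 and -0.42).

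Chemokines of the CXCR3 axis, which draw activated T cells, lay between the Control and NMBA rats. Cxcl10 read -2.30, -4.89, -3.76, -1.64 and -2.54 in gamma rats 1 to 5, -5.56, -5.54, -4.78, -4.82 and -5.32 in Control rats, and -0.04, -0.57, -1.16, -1.89 and -0.63 in NMBA rats. Gamma rat 2 lay among the Control rats and gamma rat 4 among the NMBA rats. The difference from Control was 2.18 ± 0.53 and just missed the threshold (limma adjusted p = 0.0574), and it passed without gamma rat 2 or without Control rat 1. It also passed with quantile normalization (2.25, adjusted p = 0.0405), with median centring (adjusted p = 0.0481) and with slide as a random block, but not with the normexp background (1.71, adjusted p = 0.132). NMBA minus Control was 4.35. Against NMBA, Cxcl10 was lower by a fitted -2.17 (limma adjusted p = 0.0132). Cxcl9 differed from Control by 1.34 ± 0.51 (limma adjusted p = 0.185) and Cxcl11 by 0.83 ± 0.43 (adjusted p = 0.302), while NMBA minus Control was 3.60 and 3.25. Of the 6 genes of the axis that were tested of 7 listed, none passed against Control, and their median was 0.53 in gamma minus Control and 2.57 in NMBA minus Control. Their receptor Cxcr3 was 0.18 ± 0.42 from Control.

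Interferon-induced genes as a list stood at a median of -0.05 (26 tested of 30, none called), with a median of 0.77 in NMBA minus Control. The sign of the gamma median turned in 5 of 24 alternatives. Isg15, a ubiquitin-like protein among the most inducible, read 0.73, -0.75, -1.0, 0.64 and -0.09 in gamma rats, between -1.63 and -0.61 in Control rats and between 0.95 and 1.78 in NMBA rats. Gamma rats 1 and 4 were the higher ones here too. Isg15 differed from Control by 0.93 ± 0.30 without passing (limma adjusted p = 0.131), and it was lower than in NMBA rats (-1.45, adjusted p = 0.00553). Oas1a was 1.12 ± 0.37 from Control (limma adjusted p = 0.138).

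Lymphocyte genes were close to Control. T cell genes had a median of -0.19 in gamma minus Control (16 tested of 17, none called) and 1.13 in NMBA minus Control. Cytotoxic lymphocyte genes had medians of 0.02 and 1.39 (11 tested of 12, none called against Control). Cd247, the zeta chain of the T cell receptor, read -4.74, -5.50, -5.43, -4.49 and -4.95 in gamma rats, between -5.14 and -3.98 in Control rats and between -4.21 and -1.86 in NMBA rats. Gamma and Control rats overlapped, and of the NMBA rats only rat 4 (-4.21) lay within the Control range. Cd247 differed from Control by -0.27 ± 0.37 (limma adjusted p = 0.716) and from NMBA by -2.10 (adjusted p = 0.00364). Il2rb, a chain of the interleukin 2 receptor, and the granzyme gene Gzmc gave -0.26 and -0.35 against Control, and -1.51 and -2.31 against NMBA, the latter pair each with a limma adjusted p of 0.00364. Cd247, Il2rb and Gzmc were named by a rule that asked for calls in NMBA minus Control and gamma minus NMBA, and none against Control. That rule fixed which of their comparisons passed, so their p-values are descriptions. A difference from Control that did not pass does not show that the levels were equal.

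MHC class II genes, carried by antigen-presenting cells, had a median of -0.26 (10 tested of 10, none called), against 0.69 in NMBA minus Control. Their master regulator Ciita read -3.47 to -2.83 in gamma rats, -3.25 to -2.38 in Control rats and -2.43 to -1.13 in NMBA rats. The gamma and Control ranges overlapped. Ciita was -0.14 ± 0.24 from Control (limma adjusted p = 0.781) and lower than in NMBA rats by a fitted -1.34 (adjusted p = 0.00364). Bcl2a1, a survival gene of blood cells, and Dapp1, a B cell adaptor, gave -0.37 and -0.31 against Control and -1.63 and -1.19 against NMBA. Aire, the thymic regulator of self-antigen expression, was above background on 2 gamma arrays, no Control array and 1 NMBA array. Its signals were thus near background, and it was -0.11 ± 0.20 from Control (limma adjusted p = 0.786). Ciita, Bcl2a1, Dapp1 and Aire were named by the same rule as Cd247, so their p-values are descriptions too. Of 18 CC chemokines tested of 18 listed (median -0.52), 1 was called, against 0.632% of all genes. This was Ccl22, a chemokine that draws CCR4-bearing T cells. It lay between -4.07 and -3.62 in gamma rats and between -5.70 and -4.38 in Control rats, and rose by 0.98 ± 0.23 (limma adjusted p = 0.0448), keeping the call in 2 of the 10 fits without 1 rat.

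**Figure D4:**
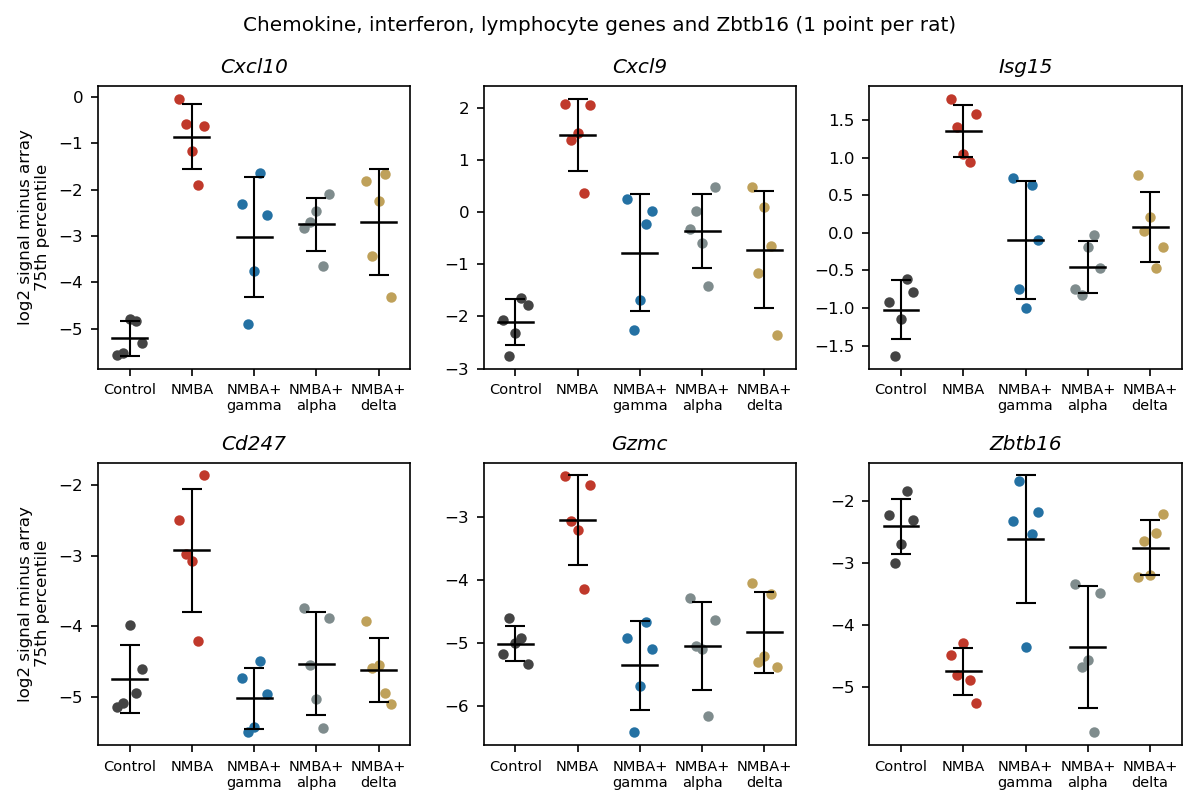
Array-scaled log2 level (y axis) of Cxcl10, Cxcl9, Isg15, Cd247, Gzmc and Zbtb16 in each of the 5 groups (x axis), with 1 point per rat, the group mean as a line and bars of 1 SD. Cxcl10 of the gamma rats spreads from -4.89 to -1.64, between the Control and NMBA groups, and Cd247 and Gzmc of the gamma rats overlap the Control rats.

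Zbtb16, the transcription factor PLZF, went the other way. It read -2.33, -1.69, -4.36, -2.54 and -2.18 in gamma rats, between -3.0 and -1.84 in Control rats and between -5.26 and -4.30 in NMBA rats. Only gamma rat 3 stood with the NMBA rats. Zbtb16 was -0.20 ± 0.42 from Control (limma adjusted p = 0.823) and 2.13 above NMBA (adjusted p = 0.00471). Mgmt, the repair enzyme for methylated guanine, was 0.10 ± 0.16 from Control and -0.74 from NMBA (limma adjusted p = 0.751 and 0.00716).

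Genes of DNA replication and mitosis leaned higher in the gamma rats. Of 29 tested of 32 listed, 27 had a positive difference, the median was 0.48 against -0.06 over all genes, and 9 had groups that did not overlap, against 3.36% of all genes. Within the slide the list's median was 0.57, and it stayed between 0.28 and 0.60 over the alternatives. In NMBA minus Control it was 0.08, in gamma minus alpha 0.44 and in gamma minus delta 0.01, so the delta rats stood near the gamma rats. Only Tyms, the thymidylate synthase that makes a DNA precursor, passed, against 0.632% of all genes. It read -1.52, -1.62, -1.07, -1.43 and -1.40 in gamma rats and -1.83, -2.05, -2.12, -2.29 and -2.21 in Control rats. The groups were apart, with gamma rat 3 the highest, and Tyms rose by 0.69 ± 0.14 (limma adjusted p = 0.0245), a call kept in 5 of the 10 fits without 1 rat. Mki67, the common marker of dividing cells, was 0.33 ± 0.32 from Control and the cyclin Ccnd1 0.06 ± 0.17, and neither passed (limma adjusted p = 0.596 and 0.871).

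Among 14 tested cyclins and inhibitors of the G1 to S step (15 listed) none passed and the median was 0.21. Cdkn2a, which encodes the cell cycle inhibitor p16 and the p53 activator ARF, was -3.24, -3.56, -1.87, -2.50 and -3.91 in gamma rats and -4.16, -6.65, -4.80, -4.92 and -4.54 in Control rats. The groups did not overlap, but Control rat 2 was far below the others, and the difference of 2.0 ± 0.54 did not pass (limma adjusted p = 0.0797). It passed without Control rat 1. Of 17 p53 target genes tested of 19 listed, 15 had a positive difference, the median was 0.30 and none passed. Cdkn1a, the p53-induced inhibitor p21, was 0.37 ± 0.14 from Control (limma adjusted p = 0.188), and its other probe gave 0.06.

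Keratinocyte markers did not pass in either direction. Squamous differentiation genes had a median of -0.14 (16 tested of 26) and basal genes -0.08 (10 tested of 12), and both medians were above 0 within the slide (0.12 and 0.16) and with quantile normalization. Krt13, a keratin of the suprabasal esophageal layers, read 4.30, 3.89, 5.09, 4.54 and 4.40 in gamma rats and 4.42, 5.15, 5.28, 5.30 and 5.11 in Control rats. Control rat 1 lay among the gamma rats, and the other Control rats above them. Krt13 differed by -0.61 ± 0.19 (limma adjusted p = 0.125) and by 0.03 within the slide. Its partner Krt4 gave -0.47 ± 0.15 and 0.08.

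Markers of the tissue under the epithelium were lower almost throughout, although only Gfap passed, a call that most fits without 1 rat lost. All 14 tested fibroblast and matrix genes (18 listed) had a negative difference, with a median of -0.79, and so had all 12 macrophage genes (-0.53), all 9 tested mast cell genes of 11 listed (-0.87), all 10 smooth muscle genes (-0.55) and all 9 tested endothelial genes of 11 listed (-0.47). None of these genes passed. The summed fibroblast level ranged from 5.33 to 6.42 in gamma rats and from 6.45 to 7.03 in Control rats, without overlap. The summed mast cell level ranged from -1.07 to 1.68 and from 1.73 to 2.96. Both gaps were narrow. Summed levels overlapped for macrophage genes (3.48 to 4.91 in gamma and 4.87 to 5.18 in Control rats). They also overlapped for smooth muscle (5.42 to 6.45 and 6.24 to 6.88) and endothelial genes (1.30 to 2.96 and 2.89 to 3.08). Of 15 tested nerve and Schwann cell genes (16 listed, Gfap included), 12 differences were negative and 3 positive, with a median of -0.58. Within the slide the medians were -0.67 for fibroblast, -0.58 for macrophage, -1.25 for mast cell, -0.27 for smooth muscle and -0.48 for endothelial genes. In NMBA minus Control they were -0.55, -0.05, -0.20, -0.19 and -0.35 in the same order. Skeletal muscle genes had a median of -0.45, which was 0.50 within the slide. The part of these cell types in the other results was not tested.

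Decorin (Dcn), a small proteoglycan of collagen fibres, was 3.08, 3.28, 2.73, 3.55 and 3.25 in gamma rats and 3.42, 4.22, 4.17, 4.06 and 3.96 in Control rats. Control rat 1 lay among the gamma rats and the other Control rats above them. The difference was -0.79 ± 0.22 (limma adjusted p = 0.0855) and -0.24 within the slide, and it passed without Control rat 1. Mcpt1, a mast cell protease, varied more within groups than any other gene named here, from -5.36 to -0.65 in gamma rats and from -3.59 to 1.99 in Control rats, and its difference of -3.37 ± 1.21 did not pass (limma adjusted p = 0.164). The complement gene C1qc of macrophages was 2.38, 2.60, 1.39, 2.92 and 2.84 in gamma rats and 3.0 to 3.22 in Control rats. Gamma rat 3 was the lowest, and the difference was -0.64 ± 0.28 (limma adjusted p = 0.232).

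**Figure D5:**
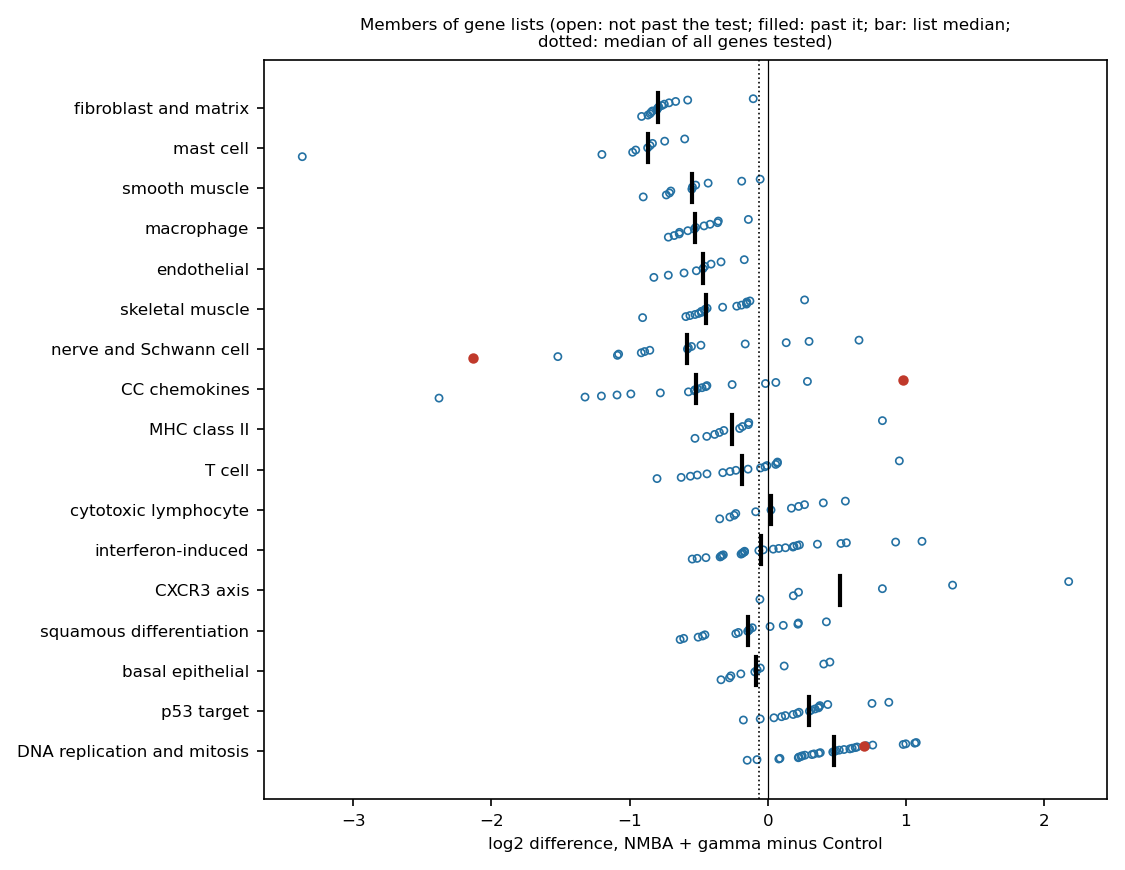
Log2 difference of gamma minus Control (x axis) for each tested member of 17 gene lists (y axis), with open points for genes that did not pass the test, filled points for those that did, a bar at each list's median and a dotted line at the median of all genes (-0.06). Fibroblast, mast cell, smooth muscle, macrophage and endothelial genes all lie below 0, and 27 of 29 genes of DNA replication and mitosis lie above it.

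Of 13 genes of vitamin E transport and metabolism tested of 15 listed, 1 passed, against 0.632% of all genes, and the median was -0.25. Ttpa, the tocopherol transfer protein, read -4.10, -4.45, -3.54, -3.92 and -3.90 in gamma rats, -5.02, -4.39, -4.93, -5.50 and -5.61 in Control rats and between -4.62 and -3.84 in NMBA rats. Gamma rat 2 and Control rat 2 overlapped. Ttpa rose by 1.11 ± 0.25 (limma adjusted p = 0.0416; 1.04 within the slide), and NMBA minus Control was 0.95. The call was kept in 3 of the 10 fits without 1 rat, where the adjusted p ran from 0.0156 to 0.138. Ttpa did not pass with quantile normalization (1.21, limma adjusted p = 0.058) or median centring (1.15, adjusted p = 0.068). Nor did it pass with the normexp background (0.66, limma adjusted p = 0.126). Sec14l3, a lipid-binding protein named after its values were seen, had the lowest difference of the list, -3.10 ± 1.09. It ranged from -9.42 to -5.86 in gamma rats and from -8.50 to -3.46 in Control rats, which overlap widely, and it did not pass (limma adjusted p = 0.157).

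Antioxidant and glutathione genes under the regulator Nrf2 had a median of 0.07 (22 tested of 22, none called). Nqo1, the quinone reductase often used as their readout, was 3.20, 3.09, 3.73, 3.10 and 3.09 in gamma rats and 3.10 to 3.55 in Control rats. The ranges overlapped, and the difference was -0.01 ± 0.14 (limma adjusted p = 0.969). Gclm, a subunit of the enzyme that begins glutathione synthesis, was 1.28 ± 0.49 from Control without passing (limma adjusted p = 0.187). NF-kB target genes had a median of -0.39 with none of 16 called, and repair genes for alkylated and mismatched bases -0.02 with none of 12 called.

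Among stress and hormone lists, 1 of 17 tested genes of the amino acid response and unfolded protein response passed, against 0.632% of all genes. This was Adm2, a peptide of the calcitonin family, which lay between -1.77 and -1.09 in gamma rats and between -2.50 and -2.02 in Control rats. It rose by 0.81 ± 0.16 (limma adjusted p = 0.0188), and it was 1.40 above Control in NMBA rats and lower in gamma than in NMBA rats (-0.59, adjusted p = 0.0230). Pparg, the fat-cell nuclear receptor, was 0.72 ± 0.17 above Control with groups that did not overlap and just missed the threshold (limma adjusted p = 0.0515). Most of the fat-cell list had the opposite sign: of its 9 genes tested of 12 listed, Pparg included, none passed, 7 had a negative difference, and the median was -0.47. Cfd, the fat-cell protease adipsin, was -0.95 ± 0.38 from Control (limma adjusted p = 0.194).

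Against the other tocopherols, which share NMBA but not the slide in full, the gamma rats differed from the alpha rats in 200 genes (1.62%) and from the delta rats in 0 genes by limma, where 503 had an unadjusted p under 0.05. Alpha rats sat on another slide from all gamma rats, so slide and tocopherol cannot be told apart in that comparison. Gip, Krt82 and Atp13a5 differed from the delta rats by 0.32, 0.24 and 0.10 and from the alpha rats by 0.44, 0.23 and 0.08, none past the threshold. Cyp1a1 was 0.16 from the alpha rats and -0.80 from the delta rats, also without passing. No gene was called in gamma minus Control, gamma minus alpha and gamma minus delta together, since the last of these held 0 calls.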

How the data were processed

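Of 25 rats on 25 arrays, 10 entered the comparison described and all 25 the fit. Per the file headers, the deposited scanner files hold fluorescence intensity, background-subtracted within each array, from Agilent Feature Extraction 11.5.1.1, although version 10.7 stands in the submitters' processing notes. A deposited table (30507 probes) holds log2 values that followed the scanner values (lowest r 1, as rounded) with each array's 75th percentile near 0. The number of arrays limits the precision.

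From the scanner files, outlier spots were dropped, spots of a probe averaged as log2 and each array's 75th percentile subtracted. Of 30367 probes, 18355 matched 1 symbol through RefSeq accessions, 12012 none and 0 several. Names were those of GRCr8, and the design used an older build. Among the 30367 probes, 70 had only outlier spots on some array and were dropped. Probes well above background on at least 5 arrays were kept, and each gene took its brightest, giving 12343 of 15443 named genes. Group means were fitted with limma 3.58.1 in R 4.3.3 (20 residual degrees of freedom, two-sided, Benjamini-Hochberg at 0.05). The fit was tested on simulated data. The labels call the rats biological replicates. Rat numbers did not pair the groups (closing section).

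Genes named are the 12 largest rises and 12 largest falls with groups that do not overlap, and up to 4 called or 2 uncalled members of a list. Up to 8 were called in NMBA minus Control and, with the same sign, in gamma minus Control. Up to 8 others were called in NMBA minus Control and, with the opposite sign, in gamma minus NMBA, but not against Control. A further 14 genes were always given. Others are marked as named after their values were seen. Members and all 38 lists were chosen with earlier results of these data known. Tap1, an antigen transporter entered among the vitamin E genes by mistake, was removed. Alternatives covered background, scaling, filter, probes, prior, slide, rat number and leaving out each rat; the normexp background used the median signal, since the files hold no mean signal. A gene kept back for evaluations was left out of the check for stray rats.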

Additional observations from a re-analysis of the deposited data

Results flagged for a closer look

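Among 208 gene and group combinations checked with Dixon's test at its 95% level, 18 had 1 rat far from the other 4 of its group; chance gives about 1 in 20. In gamma rats, rat 3 was the stray one for Alox5ap (-0.81), Blk (-6.84), Ccl22 (-4.07), Ciita (-3.47), Ccnd1 (2.22) and Nqo1 (3.73), the first 4 low and the last pair high. Rat 2 was low for Cd79b (-9.35), and rat 4 was high for Gip (-1.76) and Mcpt1 (-0.65). In Control rats, rat 1, the one on the gamma slide, was low for Cxcl11 (-6.02), Krt13 (4.42), Npb (-7.17), Sparc (3.61) and Zbtb46 (-5.34). Control rat 2 was low for Ccl22 (-5.70), Ccnd1 (1.52) and Klk1c8 (-6.58), and Control rat 5 was high for C1qc (3.22).

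Among the named genes, 8 differed between gamma and alpha rats by limma (adjusted p under 0.05), against 1.62% of all genes. All of them but Zbtb16 were named by rules that used the gamma values, so the count is a description. Zbtb16 was higher in gamma rats by 1.74, and 7 were lower, namely Aire (-1.05), Cd79b (-1.45), Dcc (-1.52), Gdf2 (-1.66), Npb (-0.89), Or8d6 (-1.08) and Per1 (-1.03). The groups lay on different slides.

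Probes with no gene name were outside the main comparison. Of 8538 such probes tested in the same way, 33 were called, 21 higher and 12 lower in gamma than in Control rats.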

How the results depend on the processing

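The count of 78 called genes stayed within 1.5 times under quantile normalization, median centring, the deposited values, no filter, the mean of probes and, added after the data were seen, the percentile over probes (60 to 92). It moved to 30 with the normexp background (25 higher, 5 lower), 33 with genes above background on all 25 arrays (26 higher, 7 lower), 19 with only the 10 arrays, 50 with a trended robust prior, 308 with slide as a random block (estimated correlation -0.03), and 4 with slide as a fixed block, which is the same comparison as within slide 2 (4). Under quantile normalization 48 were higher and 21 lower, against 45 and 33. Leaving out 1 rat gave 25 to 697, the latter without Control rat 1, where slide and group cannot be told apart. Of the 78 genes, 78 were still called without Control rat 1 and 24 without Control rat 4. Rat numbers did not pair the groups: same-numbered rats correlated from -0.29 to 0.22 and 1 of 5 gamma rats matched its own number best; with the replicate block 34 genes were called. Zbtb46, called in gamma minus NMBA at -0.99, was 0.084 with slide as a fixed block; the cause was not tested. Dim signals limit most falls.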
